A study of Mus musculus with 1298 samples.

Results

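The 8 genes described here are *Id1*, *Id2*, *Id3* and *Id4*, the E protein genes *Tcf3*, *Tcf4* and *Tcf12*, and *Msc*. They were chosen by name, and all 8 were found among the 17634 genes of the 10x table, the 22894 of the Smart-seq2 table and the 22938 of the bulk table. Every cell came from mouse embryos that carry Pax7CreER with a R26R-stop-EYFP reporter, in which 1 dose of tamoxifen (75 µg per g body weight, given to the dam at E9.5) marks cells expressing *Pax7* and their descendants with YFP. Cre activity is thus limited to cells that express *Pax7* around the day of the injection. Head, limbs and viscera were removed, several embryos were pooled, and YFP+ cells were sorted.

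Single cells came from 3 embryonic days (E12.5, E14.5, E16.5), on 10x (1 library a day) and on Smart-seq2 plates of the same days. In addition, 18 bulk Smart-seq2 libraries were made of cells sorted by surface markers. Of these, 12 held Pdgfra+ cells labelled E14.5 and grown in DMEM with serum or in adipogenic differentiation medium (ADM), with 6 libraries per medium. The other 6 were freshly sorted cells labelled E16.5, of which 4 held Pdgfra+ cells and 2 held Pdgfra-/Cd36+ cells. The study's text speaks of an earlier day for the sorted Pdgfra+/Thy1- cells than the labels do, and the labels are followed here. By its methods, cultured libraries are separate wells and sorted libraries of a gate are technical duplicates, so the Cd36+ libraries are 1 sample and the sorted Pdgfra+ libraries 2, and their spread is technical. Each Pdgfra+ group pools Thy1+ and Thy1- gates in equal number, since the column names do not show the sign of Thy1. They form 2 runs of same-named columns, called a and b below, and a run in 1 group is not known to match the run of the same letter in another. *Thy1* itself differed between the runs, at 2.39 to 5.53 CPM (a) and 27.5 to 36.1 CPM (b) in ADM, 7.90 to 11.4 and 61.9 to 77.99 CPM in DMEM, and 42.2 to 52.6 and 2.29 to 2.85 CPM in sorted cells, and these values were not used to assign a gate.

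Id proteins are helix-loop-helix proteins without a DNA-binding basic region. They bind E proteins, the widely expressed basic helix-loop-helix (bHLH) factors E2A (*Tcf3*), E2-2 (*Tcf4*) and HEB (*Tcf12*), and so keep them from pairing with tissue factors such as Myod1 in muscle. Musculin (MyoR, *Msc*) is a bHLH repressor of muscle progenitors that also pairs with E proteins, and Id genes are well-known targets of Bmp signalling through Smad proteins. *Tcf3* and *Tcf4* here are the E protein genes and not *Tcf7l1* or *Tcf7l2*, which share those names as aliases.

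In GENCODE vM21 (GRCm38) all 8 are protein coding. *Id1* lies at chr2:152736251-152737410 (+), *Id2* at chr12:25093799-25097140 (-), *Id3* at chr4:136143497-136145755 (+) and *Id4* at chr13:48261228-48266026 (+). *Tcf3* lies at chr10:80409514-80433647 (-), *Tcf12* at chr9:71842688-72111871 (-) and *Msc* at chr1:14753346-14755992 (-). Counts are per gene and do not separate transcripts, of which the annotation lists 62 for *Tcf4*, 21 for *Tcf12* and 14 for *Tcf3*. *Id4* overlaps A330033J07Rik and Gm49291 on the opposite strand and *Msc* overlaps Gm9947. Smart-seq2 and bulk libraries do not keep the strand, so reads of such pairs cannot be told apart there.

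The sequences before the starts of *Id2* and *Id4* are shown because these genes moved together in the mesenchymal comparisons described below. Of the 8 genes 5 had an entry among the RefSeq promoters, and both stretches are from RefSeq on GRCm38.p6, with matches to GGCGCC (a core of the Bmp-type Smad site) and to CAGCTG (an E-box) in capitals, searched on both strands. The *Id2* stretch (chr12:25096254-25096342, minus strand) is the part of its window outside annotated exons and lies inside the longest annotated *Id2* transcript. The *Id4* window (chr13:48260866-48261115, plus strand) lies upstream of the gene and outside exons.
Id2: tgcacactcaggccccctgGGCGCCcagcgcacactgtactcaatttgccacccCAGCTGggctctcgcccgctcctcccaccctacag
Id4: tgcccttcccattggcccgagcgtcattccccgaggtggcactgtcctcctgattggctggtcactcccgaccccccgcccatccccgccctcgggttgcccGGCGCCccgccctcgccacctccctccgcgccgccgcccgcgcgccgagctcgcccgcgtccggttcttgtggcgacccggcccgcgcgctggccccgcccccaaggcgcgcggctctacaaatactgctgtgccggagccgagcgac
Each held 1 match to GGCGCC, which 9.59% of 32851 RefSeq windows of 250 bases hold. The windows of *Id3*, *Tcf3* and *Tcf12* held none, and *Id1*, *Tcf4* and *Msc* had no entry. *Id2* held 1 CAGCTG, present in 13.0% of windows, which is also a match to the general E-box CANNTG present in 66.2%. The *Id4* window held no CANNTG. A match describes letters in a window and is no evidence of binding.

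After filtering, 3852 of 3916 cells were kept (2921 on 10x and 931 with Smart-seq2) and fell into 16 clusters. Median depth per 10x cell was 2185 UMIs in the E12.5 library, 5930 in that of E14.5 and 1608 in the E16.5 one. Clusters were named for marker lists as early progenitor-like (EP, 10.5% of kept cells), late progenitor-like (LP, 19.8%), early muscle-like (EM, 17.9%), late muscle-like (LM, 6.15%), dermal fibroblast-like (DF, 15.6%), brown adipocyte-like (BA, 4.52%), neuron-like (N, 18.5%), neural progenitor or glia-like (NG, 5.58%) and pericyte-like (PE, 1.48%). The 8 genes took no part in forming clusters. The EP-like name rests on 3 detected markers, and its marker score (0.819) was close to that of the Schwann list (0.797). Of the LP-like cells, 47.9% formed a cluster with a higher score for the chondrocyte list (2.79) than for the LP list (1.46), although no chondrocyte marker was among its leading genes, so comparisons with LP-like cells were also run without it. The 10x libraries shared 3 cell barcodes among 2931. A pool is 1 platform and day, and how many collections of embryos it holds is not given. The p-values measure the spread between pools or libraries, which may be partly technical.

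*Msc* was the most restricted of the 8 genes and the one that set EM-like cells apart. On 10x its level in EM-like cells went up from day to day, from 68.7 CPM (counts scaled to a fixed library total) through 162.4 to 297.6 CPM. It stood in LM-like cells at 3.31 to 52.2 CPM, and in the 10 sums of other classes between 0 and 5.83 CPM. Cells of at least 1000 UMIs were also thinned to 1000 UMIs, and shallower cells were left out. Of the thinned EM-like cells, 3.18%, 16.6% and 24.8% had an *Msc* UMI at the 3 days. In any non-muscle class the share was at most 0.844%, read as background. Before thinning the shares over all EM-like cells were 13.0%, 57.6% and 37.5%. Smart-seq2 gave the same order, with the highest *Msc* level in EM-like cells at E16.5 (518.2 CPM).

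The 4 Id genes had their highest 10x levels in 3 classes. *Id1* peaked in DF-like cells at E16.5 (736.2 CPM), *Id2* in EP-like cells (1429 CPM), and *Id3* and *Id4* in NG-like cells (1622 and 337.1 CPM). *Id1* was lowest in N-like cells at E14.5 (76.5 CPM), *Id3* in LM-like cells at E16.5 (145.7 CPM), and *Id4* had no UMI in EM-like and LM-like cells at E16.5 or in PE-like cells. *Id2* had no UMI in the 30 PE-like cells, a count that allows up to 55.05 CPM. In N-like cells at E14.5 *Id2* supplied 67.7% of all Id UMIs, against 34.2% in N-like cells at E12.5. In EM-like cells *Id3* supplied the largest part at all 3 days, 53.7%, 54.7% and 59.8%.

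Among the E protein genes, *Tcf3* was highest in EP-like cells (186.7 CPM), *Tcf12* in NG-like cells (420.4 CPM) and *Tcf4* in N-like cells at E14.5 (894.6 CPM). *Tcf4* and *Tcf12* were lowest in BA-like cells, at 43.6 and 27.8 CPM. After filtering, Smart-seq2 had too few BA-like cells for a sum. It placed the highest *Tcf4* level in DF-like cells at E16.5 (716.5 CPM). Those of *Tcf3* and *Tcf12* lay in NG-like cells (328.04 and 808.3 CPM). The leading class was thus the same on both platforms for *Id1*, *Id2*, *Tcf12* and *Msc*, and another one for *Id3*, *Id4*, *Tcf3* and *Tcf4*. With all deposited cells or at a finer clustering (resolution 1.2), NG-like cells at E14.5 reached the 20 cells needed for a sum and held more *Tcf4* than any class above (1018 CPM).

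**Figure D1:**
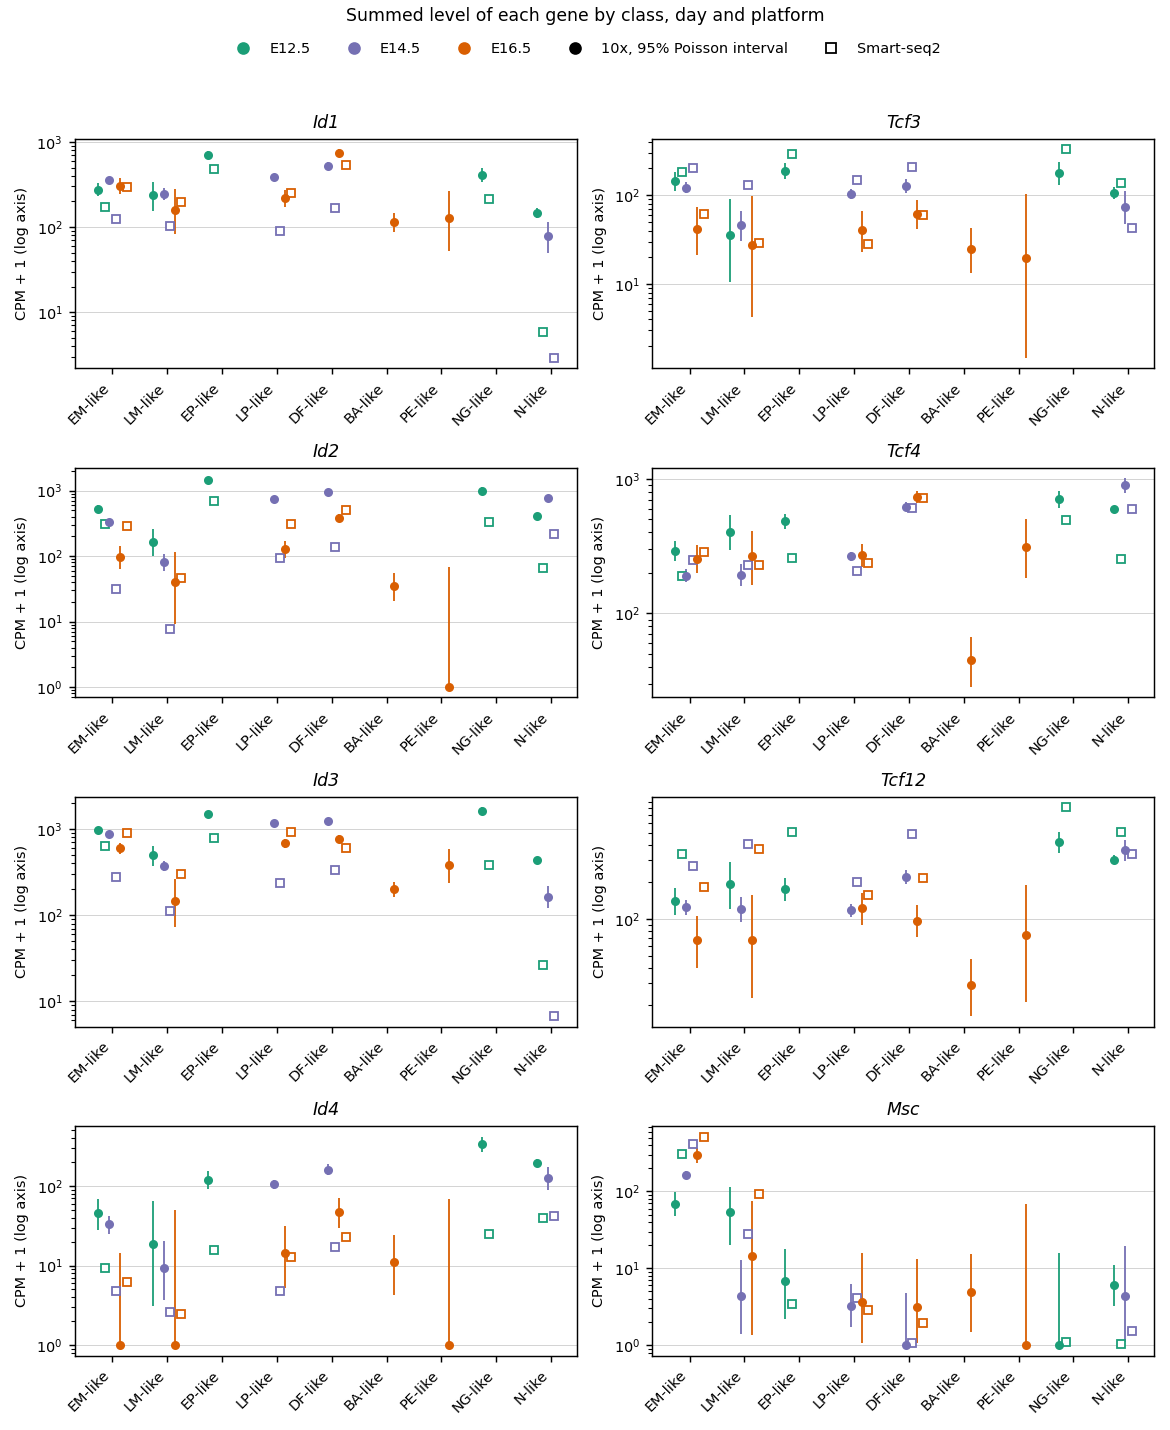
Level of each gene in every class and day with at least 20 cells, as CPM on a log axis, for 10x sums with exact 95% Poisson intervals (counting error only) and for Smart-seq2 sums as points. *Msc* stands apart in EM-like cells, at 68.7 to 297.6 CPM on 10x, while the other 7 genes are found in nearly every class.

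The summed Id counts per summed E protein count give a simple index that is compared here between classes of 1 platform only, because the genes differ in length. On 10x the index was 5.01 in LP-like cells at E14.5, 4.46 in EP-like cells and 3.75 in BA-like cells. EM-like cells had 3.15, 3.68 and 2.77 at the 3 days and LM-like cells 1.46, 1.99 and 0.963, so LM-like cells were lower on each day. N-like cells had 1.18 and 0.843, below NG-like cells at 2.59. With Smart-seq2 the same 2 orders held, with EM-like cells at 0.604 and 2.82 against LM-like cells at 0.290 and 0.869 (E14.5 and E16.5), and NG-like cells at 0.588 against N-like cells at 0.148 (E12.5). DF-like cells were below LP-like cells of the same pool in all 4 pools. No test was run on this index.

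**Figure D2:**
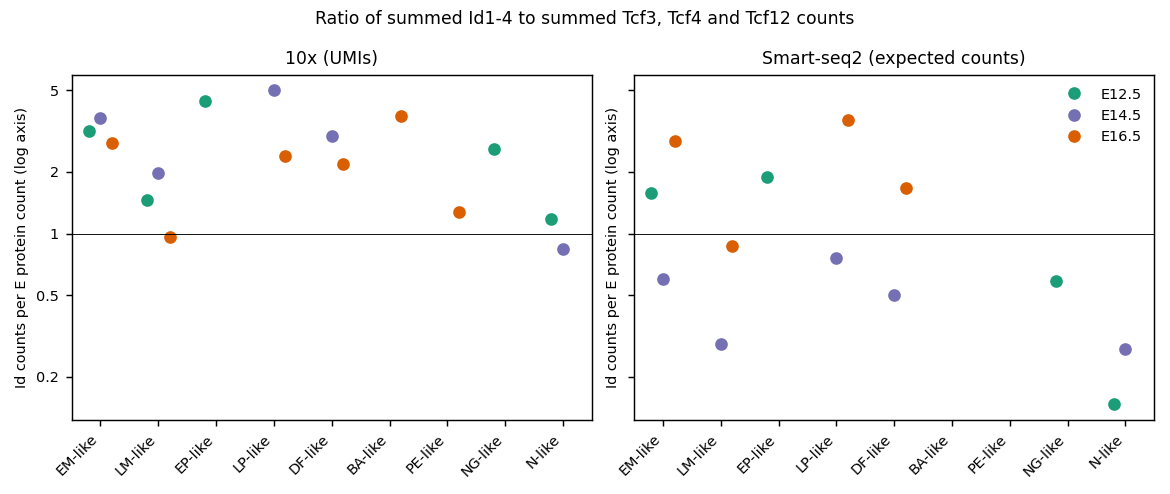
Summed counts of the 4 Id genes divided by those of the 3 E protein genes, by class and day, on a log axis, with 10x and Smart-seq2 as separate points. LM-like cells lie below EM-like cells of the same pool in all 5 pools, and N-like cells lie lowest on Smart-seq2 (0.148 and 0.274).

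EM-like cells were set against mesenchymal progenitor-like cells of the same pool (EP-like plus LP-like cells, of which 97.9% and 93.75% were EP-like in the E12.5 pools and 96.3% to 100% LP-like in the later ones), to see how the 8 genes stand at the branch between muscle and mesenchyme. *Msc* was higher and *Id2* and *Id4* were lower in EM-like cells, while *Id1*, *Id3* and the 3 E protein genes did not pass the test. Over the 6 pools, *Msc* ran from 70.4 to 531.2 CPM in EM-like sums (median 312.2) and from 1.87 to 5.87 in progenitor-like sums (median 2.56). The ranges did not overlap, and the log2 difference was 7.10 ± 0.41 (SE; edgeR quasi-likelihood test with pool as a block, Benjamini-Hochberg adjusted p = 1.1e-05). *Id2* ran from 30.9 to 535.8 CPM (median 303.9) in EM-like sums and from 103.8 to 1461 (median 502.9) in progenitor-like sums. The ranges overlapped over days and platforms, yet within all 6 pools *Id2* was the lower in EM-like cells (log2 difference -0.98 ± 0.19, edgeR adjusted p = 0.0040). *Id4* was lower in 5 of 6 pools, with 3.88 against 3.86 CPM in the sixth (Smart-seq2 E14.5), at 0 to 45.4 CPM (median 7.03) against 3.86 to 123.3 (median 13.9), by -1.00 ± 0.32 on the log2 scale (edgeR adjusted p = 0.039). Of all 13963 genes tested, 25.1% were called, and 3 of the 8 genes were, a share not far from that of all genes.

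Not all of these calls held in every setting. With the LP-like cluster of higher chondrocyte score left out, *Id2* differed by -0.62 on the log2 scale and missed the threshold (edgeR adjusted p = 0.068, with 1.4e-05 to 0.068 over all settings), and 18.1% of genes were called in place of 25.1%. The Smart-seq2 pool of E14.5 also dropped out there, so 10 sums entered in place of 12. On 10x pools alone *Id3* was called lower as well. *Id4* was no longer called without 10x E12.5, 10x E14.5, 10x E16.5 or Smart-seq2 E16.5, nor at resolution 1.2 or with all deposited cells, where *Tcf3* was called higher instead. In those 2 settings the EP-like cluster could not be named, so both E12.5 pools dropped out and 8 sums entered in place of 12. Its adjusted p ran from 0.0034 to 0.19 over all settings.

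Among other genes of the network, 13 of the 26 listed tissue bHLH partners of E proteins were tested, and 4 rose and 2 fell (list median -1.00 on the log2 scale, against -0.15 over all genes). The muscle determination factors *Myod1*, *Myf6* and *Myf5* were higher in EM-like cells by 9.01, 7.40 and 6.68, and *Twist2* and *Twist1*, bHLH factors of mesenchyme, were lower (-5.61 and -4.29). Of 30 Bmp and Smad genes 3 rose and 11 fell (median -0.77). The ligand *Bmp5* differed by -8.27 and the Bmp antagonist *Nog* by 2.21. Of 8 Hes and Hey type repressors 3 rose, *Heyl* by 3.51, *Hes6* by 2.71 and *Hey1* by 1.87, and *Bhlhe40* fell by 2.11 (median -0.38).

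LM-like cells, which express contractile genes, were compared with EM-like cells of the same 5 pools. *Msc*, *Id2*, *Id3* and *Tcf3* were lower in LM-like cells and *Tcf12* was higher, so the E protein genes did not move as one. *Msc* in EM-like sums stood at 70.4, 165.01 and 304.3 CPM on 10x (E12.5, E14.5, E16.5) and at 424.2 and 531.2 CPM with Smart-seq2 (E14.5, E16.5). In LM-like sums of the same pools it stood at 53.9, 3.39, 13.6, 28.1 and 95.3 CPM. It was lower in 5 of 5 pools, although the LM-like value of the last pool lay above the lowest EM-like value. The log2 difference was -3.03 ± 0.34 (edgeR quasi-likelihood test with pool as a block, adjusted p = 5.1e-08). *Id2* stood at 535.8, 341.4, 97.7, 30.9 and 291.7 CPM in EM-like sums and at 170.8, 81.3, 40.7, 6.98 and 45.6 CPM in LM-like sums, lower in 5 of 5 pools by -1.96 ± 0.20 (edgeR adjusted p = 1.8e-08). *Id3* stood at 998.9, 887.4, 608.5, 283.997 and 928.7 CPM against 512.3, 381.2, 149.2, 112.5 and 309.3 CPM, also lower in 5 of 5 pools (log2 difference -1.22 ± 0.18, edgeR adjusted p = 4.7e-06). Within each pool the order was thus constant for these 3 genes, while the ranges over pools overlapped.

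*Tcf3* (E2A) stood at 147.6, 123.1, 41.3, 208.5 and 61.996 CPM in EM-like sums and at 35.95, 45.7, 27.1, 132.4 and 28.8 CPM in LM-like sums, lower in all 5 pools (log2 difference -0.90 ± 0.25, edgeR adjusted p = 0.0074). Without 10x E14.5 it was not called, and its adjusted p ran from 0.00082 to 0.098 over all settings. *Tcf12* (HEB) was higher in LM-like cells in 4 of 5 pools, at 197.7, 121.98, 67.8, 416.4 and 381.3 CPM against 143.02, 125.3, 67.6, 273.9 and 184.7 CPM in EM-like cells (log2 difference 0.70 ± 0.21, edgeR adjusted p = 0.016). On 10x alone the *Tcf12* values differ mainly at E12.5, and it was not called there or without either Smart-seq2 pool (adjusted p from 0.0098 to 0.58 over all settings). *Tcf4* (0.13 ± 0.17) and *Id1* (-0.31 ± 0.19) did not pass the test. *Id4* was low in both classes, at 0 to 45.4 CPM in EM-like and 0 to 17.98 CPM in LM-like sums (log2 difference -1.37 ± 0.60, edgeR adjusted p = 0.10). With DESeq2 *Id4* was called lower. In all, 5 of the 8 genes were called, against 24.2% of 10146 genes. Over all genes called, 1177 were higher and 1281 lower, and with library totals in place of TMM factors 937 were higher and 1697 lower, with the same direction for each of the 5 genes.

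The muscle factors changed in both directions between these classes. Of 7 tissue bHLH partners tested, *Myog*, the bHLH factor of differentiation, rose by 3.72 on the log2 scale and *Myod1* by 0.72, while *Myf5* differed by -5.22 and *Tcf15* by -3.31 (list median 0.32, against 0.05 over all genes). Of 21 Bmp and Smad genes 1 rose and 4 fell (median -0.10), among them *Bmp7* (-4.34), *Nog* (-3.34) and *Bmp4* (-2.99). Of 6 Hes and Hey type repressors *Hes6* rose by 2.04, and *Hey1* (-1.75) and *Hes1* (-1.23), which Notch signalling is known to induce, fell (median -0.83).

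**Figure D3:**
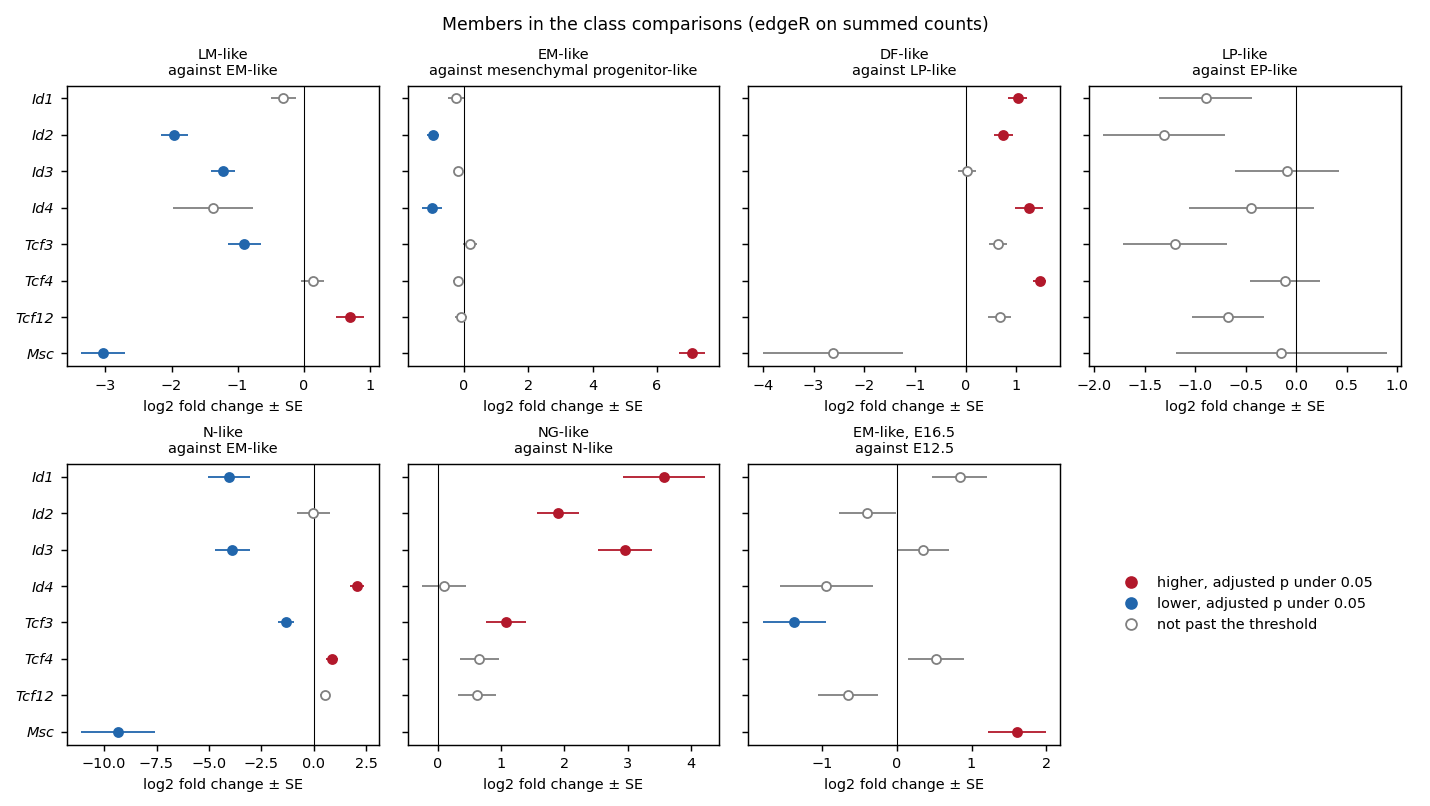
Log2 difference ± SE of the 8 genes in the 7 class comparisons, from edgeR on summed counts, with filled points past an adjusted p of 0.05 and open points not. *Msc* is farthest from 0 of the 8 genes in both EM-like against progenitor-like cells (7.10) and N-like against EM-like cells (-9.34), the 4 called genes of DF-like against LP-like cells lie to the right of 0, and none is called in LP-like against EP-like cells.

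Within EM-like cells, *Msc* rose and *Tcf3* fell between E12.5 and E16.5. *Msc* went from 70.4 CPM at E12.5 to 304.3 at E16.5 on 10x and from 320.1 to 531.2 CPM with Smart-seq2, with 165.01 and 424.2 CPM at E14.5. Both platforms rose, by 1.61 ± 0.39 on the log2 scale in 1 fit of 6 sums with platform as a term (edgeR quasi-likelihood test, adjusted p = 0.00096). *Tcf3* went from 147.6 to 41.3 CPM on 10x and from 188.3 to 61.996 CPM with Smart-seq2 (log2 difference -1.38 ± 0.42, edgeR adjusted p = 0.016). The other 6 genes did not pass the test, with differences from -0.95 for *Id4* to 0.84 for *Id1*. The 2 calls of 8 stand beside 10.3% of 12441 genes. Most EM-like cells of E12.5 and E16.5 shared 1 cluster, while most of those of E14.5 lay in another. The first held 96.6% of the E12.5 cells, 3.31% of the E14.5 cells and 68.2% of the E16.5 cells, and the other the rest. Each day is 1 pool per platform, and without 10x E12.5 or Smart-seq2 E12.5 no member was called. Without 10x E16.5, *Id1*, *Id3*, *Msc* and *Tcf3* were called, and without Smart-seq2 E16.5 *Msc*, *Id2* and *Id4*. Of the calls over all genes 53.8% were higher, but 34.1% with library totals, which moved the median of all genes from 0.00 to -0.31, and 47.003% with RLE size factors. *Msc* rose and *Tcf3* fell under all 3 scalings. Of 9 tissue bHLH partners *Myod1* (1.60) and *Myog* (1.17) rose and 3 fell, *Tcf15* by 10.97 and the mesenchymal *Twist2* (-5.62) and *Twist1* (-5.55) less (list median 0.51). The summed level of the dermal fibroblast list in EM-like sums went down with them, from 166.2 through 54.1 to 29.4 CPM on 10x and from 66.9 through 36.3 to 19.5 CPM with Smart-seq2, and its part in the changes between days was not tested. Of 25 Bmp and Smad genes 3 rose and 3 fell, *Chrd* by 3.07 and *Nog* by -1.97 (median -0.57), and of 6 Hes and Hey type repressors 1 fell (median -0.57).

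DF-like cells were compared with LP-like cells of the same 4 pools, to set dermal cells against the mesenchymal progenitors beside them. *Tcf4*, *Id1*, *Id4* and *Id2* were higher in DF-like cells, and no member was lower past the threshold. *Tcf4* (E2-2) stood at 644.5 and 768.9 CPM in DF-like sums on 10x (E14.5, E16.5) and at 621.1 and 736.9 CPM with Smart-seq2, against 275.9, 285.02, 211.6 and 240.98 CPM in LP-like sums. The 2 ranges did not overlap, and the log2 difference was 1.46 ± 0.13 (edgeR quasi-likelihood test with pool as a block, adjusted p = 8.6e-05). *Id1* stood at 546.3, 773.5, 172.3 and 543.2 CPM against 400.1, 226.9, 91.6 and 255.02 CPM (log2 difference 1.02 ± 0.19, edgeR adjusted p = 0.0078). *Id4* stood at 163.996, 48.1, 16.6 and 22.8 CPM against 108.1, 13.8, 3.96 and 11.98 CPM (1.25 ± 0.28, edgeR adjusted p = 0.018). *Id2* stood at 1002, 398.2, 138.6 and 518.3 CPM against 771.8, 132.8, 94.8 and 311.6 CPM (0.75 ± 0.18, edgeR adjusted p = 0.026). Each of these 3 Id genes was higher in DF-like cells in 4 of 4 pools, with ranges over pools that overlapped.

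*Id3*, the Id gene with the highest level in both classes at E14.5, did not pass the test. It stood at 1299, 814.7, 345.9 and 612.5 CPM in DF-like sums against 1245, 713.9, 244.3 and 954.4 CPM in LP-like sums, a log2 difference of 0.02 (edgeR adjusted p = 0.96). *Tcf3* was higher in 4 of 4 pools but just missed the threshold (0.64 ± 0.18, edgeR adjusted p = 0.053). It passed under RLE size factors, library totals, no filter, DESeq2, resolutions 0.4 and 1.2 and all deposited cells. Without Smart-seq2 E14.5 it passed as well (adjusted p from 0.015 to 0.41 over all settings). *Tcf12* (0.67, edgeR adjusted p = 0.084) and *Msc* (-2.62 ± 1.38, edgeR adjusted p = 0.28) did not pass. With DESeq2, without 10x E16.5 and without Smart-seq2 E16.5, *Tcf12* was called higher. *Msc* was at or below 3.25 CPM in all sums of both classes. Called were 4 of 8 genes, all higher, against 11.3% of 14219 genes, or 5.13% called higher. *Id2* was not called without 10x E16.5, and *Id4* not without either 10x pool. Leaving out the LP-like cluster of higher chondrocyte score removed the Smart-seq2 pool of E14.5, since only 10 LP-like cells remained in it. In the 3 pools left, *Tcf4* (0.99, edgeR adjusted p = 0.0065), *Id2* (1.11, p = 0.0048) and *Tcf3* (0.79, p = 0.044) were called, and *Id1* (0.79, p = 0.13) and *Id4* (0.85, p = 0.085) were not. Over all settings the adjusted p ran up to 0.0065 for *Tcf4*, 0.070 for *Id2*, 0.085 for *Id4* and 0.13 for *Id1*.

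Of 10 tissue bHLH partners 3 rose and 2 fell in DF-like against LP-like cells (median -1.37 on the log2 scale, against -0.05 over all genes). *Twist2* (4.01) and *Twist1* (1.82), which pair with E proteins in mesenchyme, were higher, and *Scx* of tendon cells (-6.34) and *Tcf15* (-9.16) were lower. Of 29 Bmp and Smad genes 4 rose, among them the antagonist *Nog* (2.38), and *Bmp5* (-3.47) and *Chrd* (-2.42) fell (median -0.02). Of 8 Hes and Hey type repressors *Hey2* rose by 2.73 and *Bhlhe40* fell by 1.60 (median -0.53).

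Between LP-like and EP-like cells day and class cannot be told apart, as no pool holds 20 cells of both. No member passed the test between LP-like cells at E14.5 and E16.5 and EP-like cells at E12.5, against 5.38% of 14081 genes called by edgeR's quasi-likelihood test on 6 sums with platform as a term. At an unadjusted p under 0.05 there was 1, *Tcf3* (-1.20), and DESeq2 also called 0, with 4 at an unadjusted p under 0.05. *Id2* stood at 771.8 and 132.8 CPM (10x) and at 94.8 and 311.6 CPM (Smart-seq2) in LP-like sums, against 1495 and 726.4 CPM in EP-like sums, a log2 difference of -1.31 that the spread between LP-like sums did not let pass. *Id1* differed by -0.90, *Tcf12* by -0.68, *Id4* by -0.45 and *Id3*, *Tcf4* and *Msc* by -0.09, -0.11 and -0.15. Without the LP-like sum of Smart-seq2 E14.5 *Tcf3* was called, without that of Smart-seq2 E16.5 *Id1* and *Id2*, and without the cluster of higher chondrocyte score *Tcf3* (-2.08, edgeR adjusted p = 0.035, with 0.019 to 0.96 over all settings). Leaving out that cluster also dropped the LP-like sum of Smart-seq2 E14.5, so 5 sums entered in place of 6. Of the calls over all genes 84.9% were higher, with library totals 62.1% and with DESeq2 70.7%. The Bmp antagonists *Chrd* (3.91) and *Fst* (3.19) and the receptor *Acvrl1* (3.75) were higher and *Acvr2b* (-2.80) lower, which were 4 of 30 Bmp and Smad genes (median -0.01 on the log2 scale, against 0.11 over all genes). None of 11 tissue bHLH partners and none of 8 Hes and Hey type repressors was called by edgeR (medians -1.26 and -0.54).

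After filtering, which includes the limit of 8% mitochondrial counts, BA-like cells reached 20 cells in 1 pool only, 10x E16.5. With all deposited cells, Smart-seq2 E16.5 held 60 BA-like cells, against 14 after filtering, and that pool was not used here. In 10x E16.5 BA-like cells were 16.8% of the cells. They were set against the LP-like cells of that library, with no test across libraries. *Tcf4* stood at 43.6 CPM (22 UMIs) in BA-like and at 271.8 CPM in LP-like cells. The ratio of these levels was 0.161, with an exact 95% interval for counting error of 0.0965 to 0.256. *Tcf12* had 14 and 46 UMIs (ratio 0.229, 0.116 to 0.424). *Id2* had 17 and 48 UMIs (0.266, 0.144 to 0.472), *Id3* stood at 200.4 and 680.7 CPM (0.294, 0.232 to 0.372) and *Id1* had 57 and 82 UMIs (0.523, 0.366 to 0.742). For these 5 genes the interval lay below 1. For *Tcf3* (12 and 15 UMIs, 0.602, 0.257 to 1.38) and *Id4* (5 and 5 UMIs, 0.752, 0.173 to 3.27) a difference was not detectable at this depth, and *Msc* had 2 and 1 UMIs. Over 7056 genes with 10 or more UMIs the interval left out 1 for 42.9% and lay below 1 for 22.6%. A few genes take a large part of the RNA of adipocytes, and how far that moves a level in CPM was not tested.

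*Pax7* is also expressed in the dorsal neural tube, and the sorted cells included N-like cells, which were compared with EM-like cells of the same 4 pools. They held less *Id1*, *Id3*, *Tcf3* and *Msc*, and more *Id4* and *Tcf4*. *Id3* stood at 463.1 and 174.04 CPM in N-like sums on 10x (E12.5, E14.5) and at 25.7 and 5.91 CPM with Smart-seq2, against 998.9, 887.4, 658.9 and 283.997 CPM in EM-like sums. *Id1* stood at 152.1, 81.7, 4.98 and 1.96 CPM against 281.5, 361.8, 177.7 and 126.3 CPM. The differences were far larger with Smart-seq2 than on 10x, and the log2 values over the 4 pools were -3.88 ± 0.82 for *Id3* and -4.05 ± 0.99 for *Id1* (edgeR quasi-likelihood test with pool as a block, adjusted p = 0.015 and 0.024). *Tcf3* was lower in 4 of 4 pools, at 110.4, 78.1, 140.3 and 42.7 CPM against 147.6, 123.1, 188.3 and 208.5 CPM (-1.33 ± 0.38, edgeR adjusted p = 0.039). *Msc* was at 0.0316 to 5.39 CPM in N-like sums against 70.4 to 424.2 CPM, without overlap (-9.34 ± 1.77, from -10.77 to -4.53 over settings, edgeR adjusted p = 0.011).

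*Id4* and *Tcf4* went the other way. *Id4* stood at 200.6, 131.4, 39.1 and 42.4 CPM in N-like sums against 45.4, 32.3, 8.73 and 3.88 CPM in EM-like sums, higher in 4 of 4 pools (log2 difference 2.07 ± 0.34, edgeR adjusted p = 0.0071). *Tcf4* stood at 621.3, 955.4, 259.4 and 619.7 CPM against 299.7, 192.8, 194.6 and 254.7 CPM, also higher in all 4 (0.87 ± 0.26, edgeR adjusted p = 0.047). *Id2* had no common direction, at 423.4, 809.8, 65.6 and 226.4 CPM against 535.8, 341.4, 316.1 and 30.9 CPM, higher in N-like cells at E14.5 and lower at E12.5 on both platforms (-0.02 ± 0.79, edgeR adjusted p = 0.99). The test of that difference (E14.5 minus E12.5) gave 3.098 ± 0.83 for *Id2* and did not pass (edgeR adjusted p = 0.29). *Tcf12* was higher in 4 of 4 pools without passing the test (0.52, edgeR adjusted p = 0.14). In all 6 of 8 genes were called, against 29.1% of 13531 genes. Only *Id4* and *Msc* were called in each setting. Without 10x E14.5 *Id1*, *Id3*, *Tcf3* and *Tcf4* were not called, without Smart-seq2 E12.5 *Id1*, *Id3* and *Tcf3* were not, and without Smart-seq2 E14.5 *Tcf3* and *Tcf4* were not. Over all genes 1876 were higher and 2063 lower, against 2550 and 1309 with library totals, under which *Tcf3* was not called and *Tcf12* was.

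Among the bHLH partners, *Neurod1* (13.63), *Nhlh2* (10.65) and *Neurod2* (10.52) were higher and *Myod1* (-10.78), *Myf5* (-10.04) and *Myog* (-9.19) were lower in N-like cells. Of 21 tested 8 rose and 4 fell (median 5.17 on the log2 scale, against -0.06 over all genes). Of 27 Bmp and Smad genes 2 rose and 5 fell (median -0.68), and of 9 Hes and Hey type repressors *Heyl* (-6.53), *Hes1* (-6.27) and *Hey1* (-3.40) fell (median -0.07).

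NG-like cells were compared with N-like cells of the 2 pools of E12.5, to set neural progenitors or glia against neurons. *Id1*, *Id3*, *Id2* and *Tcf3* were higher in NG-like cells. *Id3* stood at 1677 CPM (10x) and 395.3 CPM (Smart-seq2) in NG-like sums against 463.1 and 25.7 CPM in N-like sums (log2 difference 2.96 ± 0.42, edgeR quasi-likelihood test, adjusted p = 6.7e-05). *Id1* stood at 426.5 and 218.2 CPM against 152.1 and 4.98 CPM (3.58 ± 0.65, edgeR adjusted p = 0.00081). *Id2* stood at 1033 and 341.4 CPM against 423.4 and 65.6 CPM (1.90 ± 0.33, edgeR adjusted p = 0.00053), and *Tcf3* at 184.5 and 335.6 CPM against 110.4 and 140.3 CPM (1.07 ± 0.31, edgeR adjusted p = 0.028). The 2 NG-like values lay above both N-like values for *Id1* and *Tcf3*, and for *Id2* and *Id3* they did so within each platform only. For these 4 genes the fold was larger with Smart-seq2 than on 10x, most of all for *Id1*. The 4 sums leave 1 residual degree of freedom, so these p-values rest mostly on a spread estimated over many genes. *Id4* was higher on 10x (348.6 against 200.6 CPM) and lower with Smart-seq2 (24.6 against 39.1 CPM), and *Tcf4* (0.65) and *Tcf12* (0.62) were higher in both pools without passing the test (edgeR adjusted p = 0.20 for each). *Msc* was too low to be tested. Called were 4 of the 7 genes tested, all higher, against 11.6% of 13007 genes, or 4.71% called higher. At resolution 1.2 only *Id3* was called, and with all deposited cells only *Id3* and *Tcf3*. In both of these settings the 10x pool of E14.5 entered as well, so that 6 sums were compared in place of 4. *Hes5* (4.43), *Hes1* (4.42) and *Hey1* (2.47), repressors of neural progenitors, rose as 3 of 8 genes of their list (median 1.72 on the log2 scale, against -0.08 over all genes). *Ptf1a* (3.44) rose and *Neurod2* (-6.59) and *Nhlh2* (-2.87) fell among 17 tissue bHLH partners (median -0.19), and of 24 Bmp and Smad genes 3 rose and 2 fell (median -0.23).

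For 2 contrasts the days themselves differed. *Id1* in EM-like against progenitor-like cells was lower at E12.5, at 281.5 against 732.2 CPM on 10x and 177.7 against 469.4 CPM with Smart-seq2. At the later days it stood at 361.8 against 400.1, 311.8 against 224.5, 126.3 against 98.8 and 301.9 against 255.02 CPM, so 3 of the 4 later pools had more *Id1* in EM-like cells. The test of the difference gave -1.52 ± 0.25 on the log2 scale (E12.5 minus later days, edgeR adjusted p = 0.0028, with 4.78% of 13963 genes called). The progenitor-like cells are nearly all EP-like at E12.5 and LP-like later, so day and class cannot be told apart here. *Tcf12* in DF-like against LP-like cells stood at 227.7 against 121.4 and 501.5 against 204.8 CPM at E14.5, and at 100.7 against 127.3 and 219.1 against 160.1 CPM at E16.5 (difference -0.89 ± 0.29, E16.5 minus E14.5, edgeR adjusted p = 0.048, with 3.61% of 14219 genes called).

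*Id2* and *Id3* ran in opposite directions with age on the 2 platforms. From E14.5 to E16.5 the log2 change of *Id2* over EM-like, LM-like, LP-like and DF-like cells was -2.54 to -0.98 on 10x (median -1.58) and 1.71 to 3.20 with Smart-seq2 (median 2.22). For *Id3* it was -1.35 to -0.55 on 10x (median -0.75) and 0.82 to 1.97 with Smart-seq2 (median 1.58). All 4 classes fell on 10x and all 4 rose with Smart-seq2, and this difference was not tested, since each platform and day is 1 pool. *Tcf3* by contrast fell in all 4 classes on both, with medians of -1.20 and -1.98, and *Tcf4* rose slightly on both, with medians of 0.33 and 0.20. The titles of Smart-seq2 cells name several sets of cells within a day. The summed Id level of LP-like cells was 412.4 and 456.7 CPM in the 2 sets of E14.5 with enough such cells for a value. In the 4 sets of E16.5 it was 1348 to 1605 CPM. A batch shared by all sets of a day was not tested. A list of 11 immediate early and heat-shock genes, which respond to handling, was chosen after these day values were seen. It held *Fos*, *Fosb*, *Jun*, *Junb*, *Egr1*, *Ier2*, *Atf3*, *Dusp1*, *Btg2*, *Hspa1a* and *Hspa1b*. Their summed level rose with Smart-seq2 in all 4 classes, from 7043 to 12089 CPM in LP-like and from 1676 to 3251 CPM in LM-like cells, for example. On 10x it went from 5074 to 4802 CPM in LP-like cells, but up in DF-like (5044 to 6242 CPM), EM-like (1336 to 1856 CPM) and LM-like cells (981.5 to 1033 CPM), in which *Id2* and *Id3* went down. The part of handling in the Id levels was not tested. Among 10x cells of at least 1000 UMIs, thinned to 1000 UMIs, the share of LP-like cells with an *Id2* UMI went from 45.7% at E14.5 to 9.43% at E16.5. That of DF-like cells went from 54.3% to 26.2%, and shallower cells were left out. The cells of the 2 days lay in different clusters of each class: 2 clusters held 70.99% and 28.3% of LP-like cells at E14.5 but 16.6% and 8.28% at E16.5, and 1 cluster held 98.1% of DF-like cells at E14.5 but 2.07% at E16.5.

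**Figure D4:**
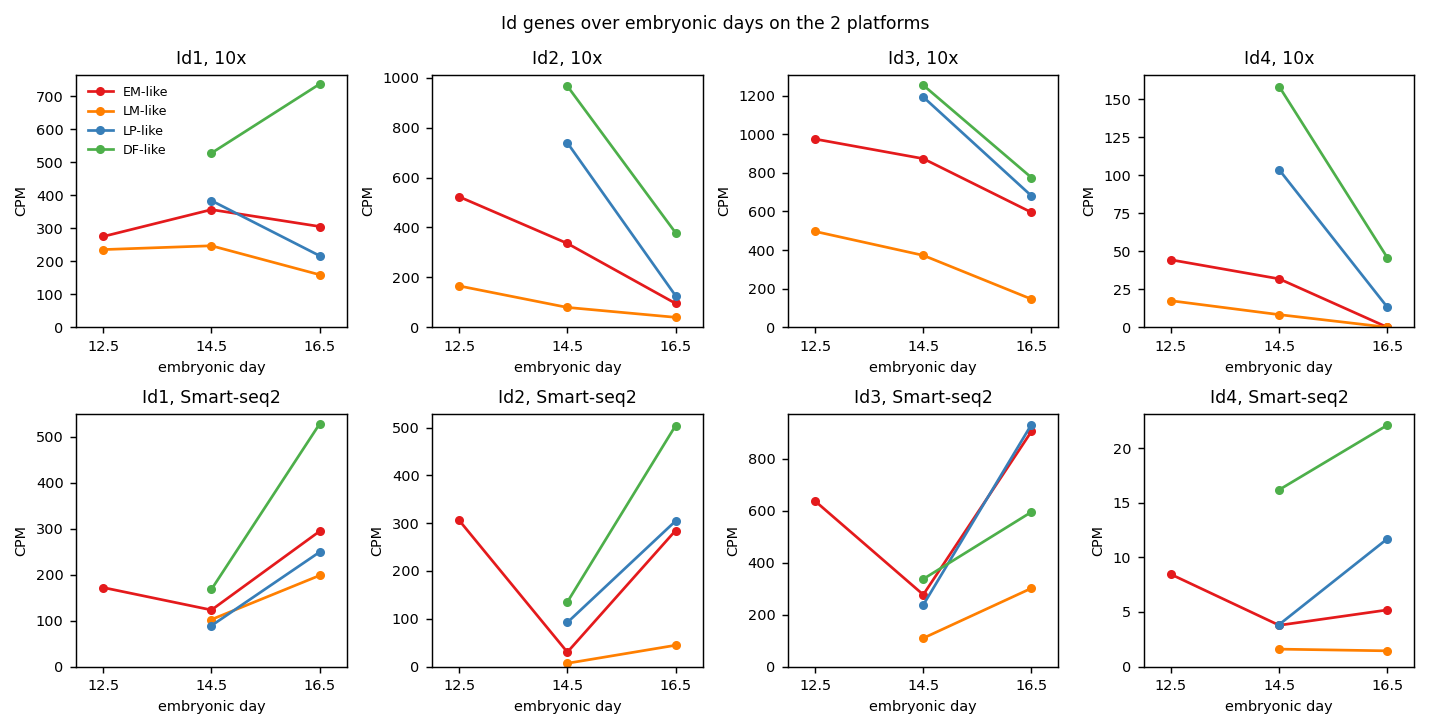
Level (CPM) of the 4 Id genes by embryonic day in EM-like, LM-like, LP-like and DF-like sums, with 10x above and Smart-seq2 below, 1 sum per point and no error bars. Lines of *Id2* and *Id3* fall from E14.5 to E16.5 on 10x and rise with Smart-seq2, with median log2 changes of -1.58 and 2.22 for *Id2*.

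The 18 bulk libraries show the same genes in cells sorted by gate and after culture, as CPM scaled by TMM factors. In bulk, fewer cells of a type and less RNA per cell cannot be told apart. In ADM against DMEM, *Id2*, *Tcf4* and *Tcf3* were lower, and *Id1*, *Id3*, *Id4* and *Tcf12* did not pass the test. *Id2* ran from 33.99 to 217.3 CPM in ADM (median 122.2) and from 123.4 to 285.6 CPM in DMEM (median 216.97). The groups overlapped, and each holds 2 runs, at 33.99 to 39.95 and 204.4 to 217.3 CPM in ADM and at 123.4 to 172.5 and 261.4 to 285.6 CPM in DMEM. The log2 difference averaged over the runs was -1.14 ± 0.09 (edgeR quasi-likelihood test, adjusted p = 2.6e-09). *Tcf4* ran from 11.9 to 98.4 CPM in ADM (median 52.04) and from 36.1 to 125.8 CPM in DMEM (median 85.4), with a difference of -0.91 ± 0.09 (edgeR adjusted p = 1.0e-07). *Tcf3* ran from 4.15 to 8.51 CPM (median 7.27) against 8.86 to 11.7 CPM (median 10.1), without overlap, with a difference of -0.50 ± 0.15 (edgeR adjusted p = 0.015).

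*Id1* (-0.19, edgeR adjusted p = 0.14), *Id3* (-0.06, p = 0.69), *Id4* (-0.58, p = 0.096) and *Tcf12* (0.03, p = 0.92) did not pass. *Msc* had 0 counts in all 6 ADM libraries and in 4 of 6 DMEM libraries. It was part of the fit, but its result was left out of this comparison because its counts lay at or near the floor. Called were 3 of 7 genes, all lower, against 35.3% of 17586 genes, or 20.2% called lower. Over all genes 2648 were higher and 3559 lower, with RLE size factors 3180 and 2930, with DESeq2 3484 and 3074, and with library totals 1095 and 7274. Library totals moved the median of all genes from -0.11 to -0.57 and called all 7 genes lower, and with RLE factors *Tcf3* was not called. Without the third ADM library of run a, *Tcf3* also missed the threshold, and with 1 mean per group over both runs no member was called by edgeR (1 at an unadjusted p under 0.05). The runs of lower *Id2* and *Tcf4* were those of the higher brown adipocyte list, which summed to 148418 to 151913 CPM against 2927 to 3167 CPM in ADM and to 25333 to 38765 against 127.7 to 162.2 CPM in DMEM. The part of cell makeup in these values was not tested.

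Of 9 tissue bHLH partners *Twist2* (-2.71) and *Myog* (-3.71) fell in ADM (median -2.71 on the log2 scale, against -0.11 over all genes). Of 30 Bmp and Smad genes 12 fell, among them *Bmp2* (-3.09) and *Fst* (-1.88), and *Smurf1* (0.87) and *Bmpr2* (0.27) rose (median -0.54). Of 9 Hes and Hey type repressors 3 fell, *Hes1* by 1.51, and *Bhlhe40* rose by 1.15 (median -0.91).

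Cultured cells in DMEM were next set against freshly sorted Pdgfra+ cells, where culture and day cannot be told apart. *Tcf4*, *Tcf12*, *Id4* and *Msc* were lower in culture and *Id1*, *Id2* and *Id3* higher. *Tcf4* ran from 36.1 to 125.8 CPM in DMEM and stood at 354.9, 375.1, 149.8 and 160.5 CPM in the sorted libraries, without overlap (log2 difference -1.69 ± 0.09, edgeR adjusted p = 1.6e-12). *Tcf12* ran from 20.03 to 49.7 CPM (median 30.2) against 99.03, 97.2, 87.97 and 84.7 CPM, again without overlap (-1.57 ± 0.10, edgeR adjusted p = 2.7e-11). *Id3* ran from 339.1 to 575.6 CPM (median 518.03) against 183.9, 254.1, 216.5 and 229.8 CPM, without overlap in the other direction (1.16 ± 0.11, edgeR adjusted p = 1.1e-08). *Id2* (0.97 ± 0.10) and *Id1* (0.57 ± 0.11) overlapped between the groups, with sorted values of 161.7, 157.1, 80.7 and 61.2 CPM for *Id2* and 61.8, 74.4, 35.9 and 40.5 CPM for *Id1* (edgeR adjusted p = 3.1e-08 and 7.9e-05). *Id4* was lower (-1.06 ± 0.22, edgeR adjusted p = 0.00029), at 3.05 to 6.01 CPM against 12.9, 10.97, 7.03 and 4.20 CPM. *Msc* had 19 to 51 counts in the 4 sorted libraries (-4.62 ± 1.02, edgeR adjusted p = 0.0010), and *Tcf3* did not pass (-0.17, p = 0.29).

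The 7 calls of 8 stand beside 70.7% of 17586 genes called, so most genes differed between these sources. The higher Id levels depend on the scaling: with library totals *Id1* (-0.76), *Id2* (-0.37) and *Id3* (-0.17) were on the lower side (the first 2 past the threshold), *Tcf3* was called lower as well, the median of all genes moved from -0.32 to -1.65, and 1420 genes were called higher and 13662 lower in place of 5102 and 7340. The TMM factors were 2.04 to 2.08 in sorted and 0.755 to 0.884 in DMEM libraries. With 1 mean per group over both runs, *Id1* and *Id2* were not called. *Tcf4*, *Tcf12*, *Id4* and *Msc* kept their direction and their call under both. With the technical duplicates summed, so that the spread is that of cultured wells alone, the same 7 genes were called in the same direction (edgeR adjusted p from 9.7e-12 to 0.0034). The blood list summed to 79.7 to 137.6 CPM in sorted libraries and to at most 0.401 CPM in DMEM, the early muscle list to 167.3 to 1078 and 114.1 to 273.1 CPM, and the chondrocyte list to 96.3 to 158.7 and 0.275 to 12.54 CPM. The part of such cells was not tested. Of 9 tissue bHLH partners 6 fell, *Myf5* with a difference of -6.45 (median -2.89 on the log2 scale, against -0.32 over all genes). Of 30 Bmp and Smad genes 21 fell and 4 rose, with *Bmp7* at -6.18 and *Grem1* at 2.44 (median -1.47), and of 9 Hes and Hey type repressors 5 fell and 2 rose, with *Heyl* at -4.67 and *Hes6* at 0.81 (median -0.97).

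Pdgfra-/Cd36+ cells, the gate of brown adipocytes, held less of 7 of the 8 genes than sorted Pdgfra+ cells. *Tcf4* stood at 26.9 and 30.98 CPM against 354.9, 375.1, 149.8 and 160.5 CPM (log2 difference -3.01 ± 0.15, edgeR adjusted p = 3.1e-13). *Tcf12* stood at 35.2 and 33.8 CPM against 84.7 to 99.03 CPM (-1.38 ± 0.15, edgeR adjusted p = 7.4e-08). *Id2* stood at 36.1 and 36.3 CPM against 61.2 to 161.7 CPM (-1.52 ± 0.14, edgeR adjusted p = 7.4e-09), and *Id3* at 115.9 and 123.5 CPM against 183.9 to 254.1 CPM (-0.85 ± 0.15, edgeR adjusted p = 5.9e-05). *Id4* (-1.97 ± 0.33), *Id1* (-0.66 ± 0.14) and *Tcf3* (-0.76 ± 0.20) were lower as well (edgeR adjusted p = 3.1e-05, 0.00057 and 0.0028). The 2 Cd36+ values lay below all 4 sorted Pdgfra+ values for each of these 7 genes. *Msc* had 5 and 42 counts and did not pass (-0.69 ± 0.92, edgeR adjusted p = 0.57). Of 17586 genes 53.1% were called, and 27.03% were called lower. Without the first Cd36+ library *Tcf3* was not called, and with 1 mean per sorted group over both runs *Id1* and *Id2* were not. With technical duplicates summed, 1 Cd36+ sum stood against 2 Pdgfra+ sums, the spread was taken from the cultured wells, and the same 7 genes were called lower (edgeR adjusted p from 1.4e-10 to 0.038). Whether a difference in day plays a part was not tested.

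Over all genes 4582 were higher and 4753 lower in Cd36+ cells, and with library totals, which moved the median of all genes from -0.01 to -0.28, 3384 and 5752. The 7 genes were called lower under both. *Tcf4*, *Tcf12*, *Id1*, *Id2* and *Id3* thus had lower levels both in this gate and in the BA-like cells of the 10x library, which are separate samples. The brown adipocyte list summed to 15575 to 18462 CPM in the Cd36+ libraries and to 108.5 to 649.7 CPM in the sorted Pdgfra+ ones, and the endothelial list, another *Cd36*-expressing type, to 57.3 to 64.2 CPM and 21.4 to 28.3 CPM. The part of endothelial cells was not tested. Of 30 Bmp and Smad genes 20 fell and *Gdf5* rose by 2.92, with *Grem1* at -5.44 (median -2.00 on the log2 scale, against -0.01 over all genes). Of 9 tissue bHLH partners 5 fell, *Twist2* by 4.33 (median -3.13), and of 9 Hes and Hey type repressors *Hey1* (-4.75) and *Hes1* (-1.89) fell and *Bhlhe41* (1.78) and *Heyl* (0.94) rose (median 0.19).

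**Figure D5:**
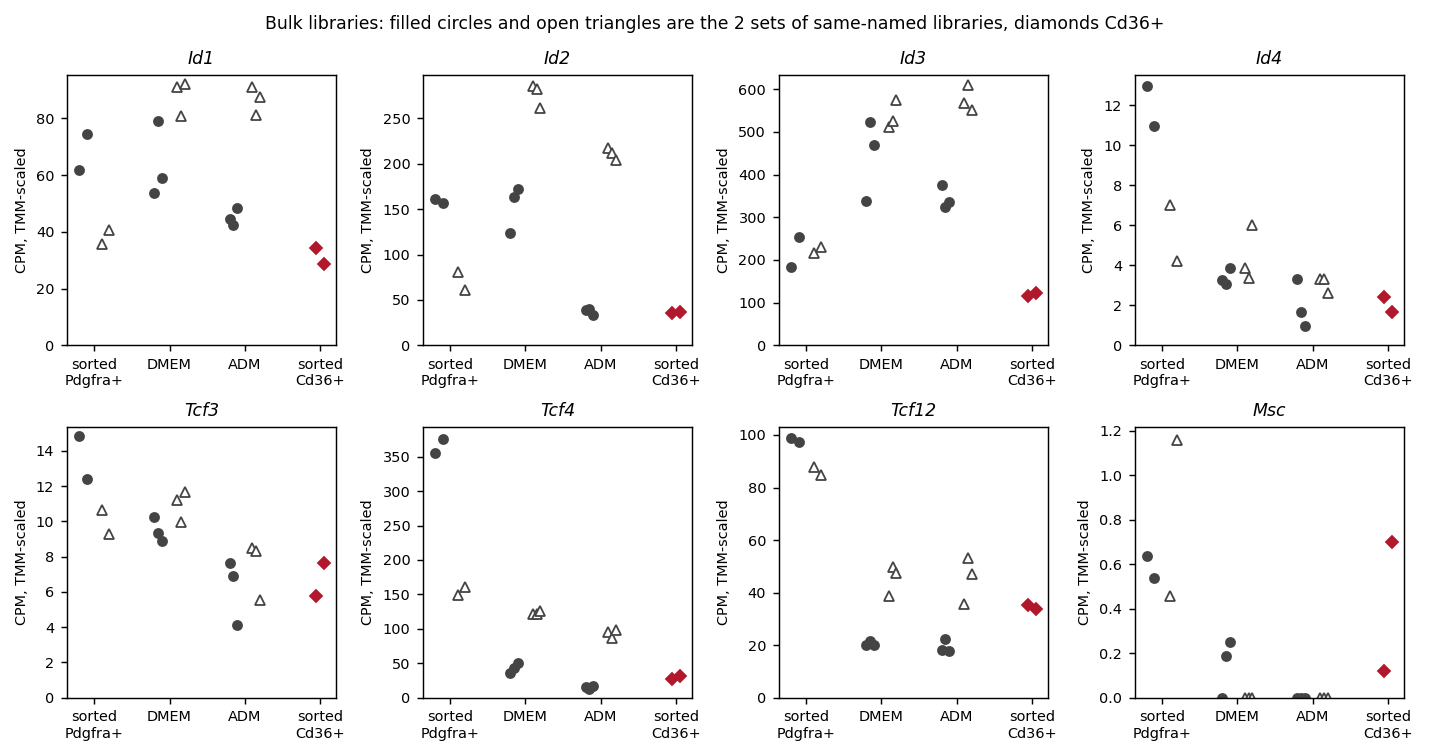
TMM-scaled CPM of the 8 genes in each of the 18 bulk libraries, with filled circles and open triangles for runs a and b and diamonds for Cd36+ libraries. The Cd36+ points of *Tcf4* (26.9 and 30.98 CPM) lie below all sorted Pdgfra+ points (149.8 to 375.1 CPM), and the runs stand apart for *Id2* and *Tcf4* in culture.

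The genes whose levels ran most like each member over the 16 class and day sums of 10x were sought among 5537 genes with a mean of at least 20 CPM, as a description with Pearson's r of log2(CPM + 1). *Msc* ran most like *Myf5* (0.880), *Kcne1l* (0.858) and *Mrln* (0.822), of which *Mrln* was a marker used to name EM-like cells. *Id2* was nearest to *Slc39a6* (0.956), *Erc1* (0.948) and *Pdcd7* (0.947), and *Id4* to *Smap1* (0.939), *Dnal4* (0.926) and *Ap3s1* (0.905). *Id1* was nearest to *Scarf2* (0.852), *Id3* (0.842) and *Raly* (0.831), and *Id3* to *Raly* (0.931), *Cbfb* (0.901) and B930036N10Rik (0.849). *Tcf3* was nearest to *Zc3h15* (0.946), *Srsf10* (0.936) and *H1fx* (0.882), *Tcf4* to *Tuba1a* (0.881), *Ncam1* (0.868) and *Ppt1* (0.864), and *Tcf12* to *Arl2bp* (0.936), *Tbpl1* (0.924) and *Klhl7* (0.924). Among the members themselves the closest pairs were *Id2* and *Tcf3* (0.865), *Id1* and *Id3* (0.842) and *Id2* and *Id4* (0.836). The sums share 3 libraries whose depth differs by day, and by Spearman's rho only 8 of the 24 nearest genes were the same.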

How the data were processed

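The series holds 10x and Smart-seq2 single cells and 18 bulk libraries. The authors deposited 10x UMI counts made with Cell Ranger on GRCm38.p6, keeping cells with a YFP UMI and at most 15000 UMIs. The deposited Smart-seq2 values are expected counts (estimated by kallisto 0.44.0 and summed per gene), for cells with at least 4000 genes. The bulk table holds whole read counts as deposited by the authors, 3390851 to 35332908 reads per library, and its aligner is not given in the sources used here. The submitters' processing notes also name STAR, Seurat and bcl2fastq.

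The filters were repeated and cells above 8% mitochondrial counts removed. The 2 platforms were integrated with Seurat 5.3.0 (CCA, 2000 variable genes, 30 components) and clustered at resolution 0.8, leaving out 73 listed genes, the 8 members among them. Clusters were named from marker lists, several of them taken from the study's own tables, so names are not independent of it. Scrublet (scanpy 1.11.5) called 6 to 8 doublets per 10x library (0.638% to 0.830%), which were kept and left out in an alternative. Counts were summed per class and pool for sums of at least 20 cells, with Smart-seq2 sums rounded to whole numbers, over 15147 shared genes. edgeR 4.0.16 (R 4.3.3) tested them with TMM factors and the quasi-likelihood test, Benjamini-Hochberg over all genes and a threshold of 0.05. Bulk libraries were fitted in the same way with 7 means (group and run), and contrasts average the runs, with technical duplicates of sorted cells entered one by one. CPM in the comparisons was scaled to the total of the shared genes, and levels elsewhere to the total of all genes. Intervals of 95% and floors of 3 counts cover counting error only. Alternatives used DESeq2 1.42.0, limma 3.58.1, other scalings, filters, clusterings and samples. Library totals, 4 group means and summed technical duplicates, among others, were chosen after seeing the data. Other steps ran in Python 3.11.15 (scipy 1.17.1, pandas 2.3.3, numpy 2.4.6), and the tests were tried on simulated data. Same-numbered cultured bulk libraries did not deviate together, and for sorted libraries, with 2 per gate, this could not be decided.

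Members and lists were chosen with earlier results of these data known. Named are all 8 members in every comparison, up to 3 genes per list and direction with the largest change past the threshold, and the 3 genes nearest in pattern. The planned contrasts of Thy1 gates were not run, because column names do not show the sign of Thy1, and contrasts over both gates took their place. No column of values was left unused (0).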

Additional observations from a re-analysis of the deposited data

Results flagged for a closer look

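In the 6 bulk DMEM libraries *Id4* had 1 library apart from the others, at 6.01 CPM against 3.05 to 3.88 CPM, a gap of 0.722 of the range (23 groups were tested, and chance gives about 1 in 20). *Id1* in EM-like against progenitor-like cells differed between E12.5 and later days by -1.52 on the log2 scale, and *Tcf12* in DF-like against LP-like cells between E16.5 and E14.5 by -0.89, each by a test of the difference itself (edgeR adjusted p = 0.0028 and 0.048). From E14.5 to E16.5 *Id2* changed by a median of -1.58 over 4 classes on 10x and 2.22 with Smart-seq2, and *Id3* by -0.75 and 1.58, with every class on the same side within a platform. That difference between platforms was not tested.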

How the results depend on the processing

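Of the member values under other settings, 1043 stayed on the same side of the threshold and in the same direction, 50 lost and 35 gained the call, 39 changed sign with no call on either side, and 4 that were called changed direction, all with library totals in place of TMM factors: *Tcf12* in ADM against DMEM (-0.45) and *Id1* (-0.76), *Id2* (-0.37) and *Id3* (-0.17) in DMEM against sorted cells. Counts of genes called that moved by over 1.5 times are given here as shares of the genes tested, of which fewer sums leave fewer. On 10x pools alone 20.4% were called in LM-like against EM-like, 31.7% in EM-like against progenitor-like, 11.3% in DF-like against LP-like, 0.975% in LP-like against EP-like and 25.5% in N-like against EM-like cells. DESeq2 called 11.4% in LP-like against EP-like cells and 6.38% in EM-like cells between days. NG-like against N-like cells had 1 member and 3.88% of genes at resolution 1.2, and 2 members and 4.85% with all deposited cells. Without the LP-like cluster of higher chondrocyte score 18.1% of genes were called in EM-like against progenitor-like cells, and 1 member in LP-like against EP-like cells. ADM against DMEM called 7 members with library totals, and 0 members and 9.16% of genes with 4 group means, with which Cd36+ against sorted cells called 31.8%. The class and day of the highest 10x level held for 3 of 8 members at resolution 1.2 and for 3 with all deposited cells, where the EP-like class could not be named and NG-like cells gave another sum. By Spearman's rho 8 of 24 nearest genes were shared. Other causes were not tested.

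Leaving out 1 pool or library at a time gave calls for 14.003% to 22.4% of genes in LM-like against EM-like cells, 13.3% to 40.2% in EM-like against progenitor-like cells and 6.78% to 16.9% in DF-like against LP-like cells. It gave 0 to 2 members and 0% to 14.3% of genes in LP-like against EP-like cells, where 0 genes were called by edgeR without the EP-like sum of Smart-seq2 E12.5 (661 at an unadjusted p under 0.05). It gave 2 to 6 members and 12.9% to 26.1% of genes in N-like against EM-like cells, and 0 to 4 members and 0.716% to 11.8% of genes in EM-like cells between days, the lowest without Smart-seq2 E12.5. With a replicate block in the bulk fits, 3, 7 and 7 members and 34.4%, 70.03% and 51.95% of genes were called in the 3 comparisons, the same member counts as without it. Same-numbered libraries correlated at -0.048 to 0.177 and differently numbered ones at -0.177 to 0.047. With 2 libraries per sorted gate the deviations mirror each other, so this check cannot decide whether numbers pair the sorted libraries.

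The Thy1 contrasts and their alternatives were not run. LP-like against EP-like cells gave no value at resolution 1.2 or with all deposited cells, where no 2 such classes could be compared. NG-like against N-like cells gave none without a pool or on 10x alone, nor did EM-like cells between days on 10x alone. The *Msc* ratio of BA-like to LP-like cells could not be given without doublets. Depth limits *Id4* and *Msc* most: a 10x sum of PE-like cells with no UMI still allows 55.05 CPM.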
